A study of Mus musculus with 9 samples.

Results

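The genes described here are 10 regulators of the exit from the cell cycle, taken by name from the 52780 genes of the count table. They are the Cip/Kip inhibitors of cyclin-dependent kinases (Cdkn1a, Cdkn1b, Cdkn1c), the INK4 inhibitors (Cdkn2a, Cdkn2b, Cdkn2c, Cdkn2d), the pocket protein gene Rb1 and the D cyclin genes Ccnd1 and Ccnd3. All 10 were found by their symbols in GENCODE M21, and 8 of them passed the filter on low counts, as 19545 genes did in all. The study asked how the 2 splice isoforms of the histone variant macroH2A1 act on gene expression in differentiating muscle cells. Poly(A) RNA was sequenced from C2C12, an immortal mouse myoblast line that fuses into myotubes when serum is withdrawn, after 4 days in differentiation medium. The 9 samples fell into 3 groups of 3. The first group, named si Ctrl as in the study, carries the label wild type, and the study lists a scramble siRNA as its control. The second group (si mH2A1.1) received siRNA against macroH2A1.1 and the third (si mH2A1.2) siRNA against macroH2A1.2, at 10 nM and repeatedly from the day before the change of medium. All 3 groups are the same line, medium and day. The culture at this stage can hold unfused cells beside myotubes, and in RNA from the whole culture fewer cells of a type and less RNA per cell cannot be told apart.

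Myoblasts leave the cell cycle for good when they differentiate. D cyclins with Cdk4 or Cdk6 phosphorylate the retinoblastoma protein, which otherwise holds E2F transcription factors back from the genes of DNA replication. INK4 proteins bind Cdk4 and Cdk6, while Cip/Kip proteins bind a wider range of cyclin-kinase complexes, and MyoD is known to raise p21, the product of Cdkn1a, and cyclin D3 as muscle cells withdraw from the cycle.

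Totals ranged from 36924252 to 42223108 counts per sample. H2afy, the gene of both macroH2A1 isoforms, was called lower with si mH2A1.1 against si Ctrl (log2 fold change -0.85, SE 0.11, adjusted p = 0.0033 in edgeR). With si mH2A1.2 it was at -0.39 (SE 0.11, edgeR adjusted p = 0.11), which missed the threshold. The gene-level count does not separate the isoforms, and the study reported the specificity of both knockdowns from immunoblots of the proteins. All 10 myotube markers examined had counts, with a summed level of 12160 to 17400 CPM (counts scaled to a library of 1000000) in si Ctrl, 11830 to 13360 in si mH2A1.1 and 11070 to 13810 in si mH2A1.2. Myod1 and Des, which mark the myogenic line, summed to 1203 to 1435 CPM in si Ctrl, 1560 to 1988 in si mH2A1.1 and 790 to 959 in si mH2A1.2. Most of this was Des, which was called lower with si mH2A1.2 against si Ctrl (-0.62, edgeR adjusted p = 0.047). Between the knockdowns Des was called higher with si mH2A1.1 (1.07, edgeR adjusted p = 0.00084). The 8 markers of unfused reserve cells summed to 169 to 226, 147 to 207 and 204 to 288 CPM in the same order of groups. Cd34 had the highest mean of these in each group. With si mH2A1.2 against si Ctrl, 5 of the 7 tested had log2 fold changes above 0 and 2 below. The study calls its replicates independent biological ones, of 1 cell line, and the labels number them without saying how the cultures were kept apart.

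The sequences just before the transcription start of the most abundant member and of members without a single count are shown here, since these genes mark both ends of the range of levels. Each is the 250 bases before a start site in RefSeq on GRCm38.p6, read 5′ to 3′ on the strand of the gene. Capitals mark matches to the GC box GGGCGG on either strand. The window of Cdkn1a is chr17:29093519-29093768 on the plus strand, before the second of its 2 start sites in the table. That of Cdkn2a is chr4:89282193-89282442 on the minus strand, before the downstream start of its 2, and that of Cdkn2b is chr4:89311033-89311282 on the minus strand.
Cdkn1a: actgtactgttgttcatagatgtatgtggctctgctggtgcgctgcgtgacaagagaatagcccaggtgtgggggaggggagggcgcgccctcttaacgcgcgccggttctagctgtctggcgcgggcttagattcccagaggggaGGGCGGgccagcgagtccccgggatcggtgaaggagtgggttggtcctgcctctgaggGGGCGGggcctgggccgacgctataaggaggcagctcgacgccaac
Cdkn2a: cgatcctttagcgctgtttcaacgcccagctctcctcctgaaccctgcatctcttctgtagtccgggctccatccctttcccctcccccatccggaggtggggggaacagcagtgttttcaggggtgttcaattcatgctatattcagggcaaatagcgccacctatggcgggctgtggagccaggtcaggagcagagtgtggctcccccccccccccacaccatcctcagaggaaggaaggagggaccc
Cdkn2b: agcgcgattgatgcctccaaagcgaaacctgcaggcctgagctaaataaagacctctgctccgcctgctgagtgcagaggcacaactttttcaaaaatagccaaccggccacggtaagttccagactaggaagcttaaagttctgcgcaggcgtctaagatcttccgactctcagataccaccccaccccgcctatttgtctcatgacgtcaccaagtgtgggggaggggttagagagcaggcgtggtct
The Cdkn1a window shown held 2 GC boxes, which began at -104 and -46 from the start, and the other Cdkn1a window held none. The Cdkn2a window shown held none and the other Cdkn2a window held 2, at -48 and -14, while the 1 window of Cdkn2b held none. GC boxes therefore do not separate the abundant member from those without counts. Over the 11 windows of the 7 members in the table, at least 1 GC box was found in 7 windows, and in 32.7% of all 32851 windows of this length. The E-box CAGCTG, bound by MyoD, and the E2F motifs TTTCGCGC and TTTGGCGC were in none of the 11 windows. All windows held them in 13%, 0.256% and 0.417% of cases. TATAAA was also in none of the 11, against 12.4% of all windows. The motifs were searched on both strands, and no matches in these windows overlapped one another. A match is a description of the letters only.

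Set against each other per kilobase of exon, the members spanned a wide range. In si Ctrl, Cdkn1a stood at 169.7 CPM per kb (137.3 to 210.2), above every other member in all 3 samples. Ccnd3 came next at 32.93 CPM per kb (28.74 to 39.8), then Rb1 at 25.19, Cdkn1b at 23.89 and Ccnd1 at 17.7. The ranges of Rb1 and Cdkn1b overlapped, as did those of Cdkn1b and Ccnd1. Cdkn2d at 11.75, Cdkn2c at 6.251 and Cdkn1c at 3.116 CPM per kb followed with no overlap between neighbours. Cdkn2a and Cdkn2b were last, with no counts. The order of the means with si mH2A1.2 was that of si Ctrl. With si mH2A1.1, Ccnd1 at 31.9 CPM per kb stood above Rb1 at 22.87, and its range overlapped that of Ccnd3 at 42.48. Cdkn1c at 10.87 CPM per kb (4.09 to 19.13) overlapped Cdkn1b at 17.2 and Cdkn2d at 9.463 in that group. These orders rest on exons merged over all annotated transcripts. Rb1 had 6015 bases of exon and 2763 of coding sequence, against 4552 and 591 for Cdkn1b and 4709 and 885 for Ccnd1. Per coding length Rb1 would fall below both, and in si Ctrl the ranges of Cdkn2d and Cdkn2c would overlap.

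**Figure D1:**
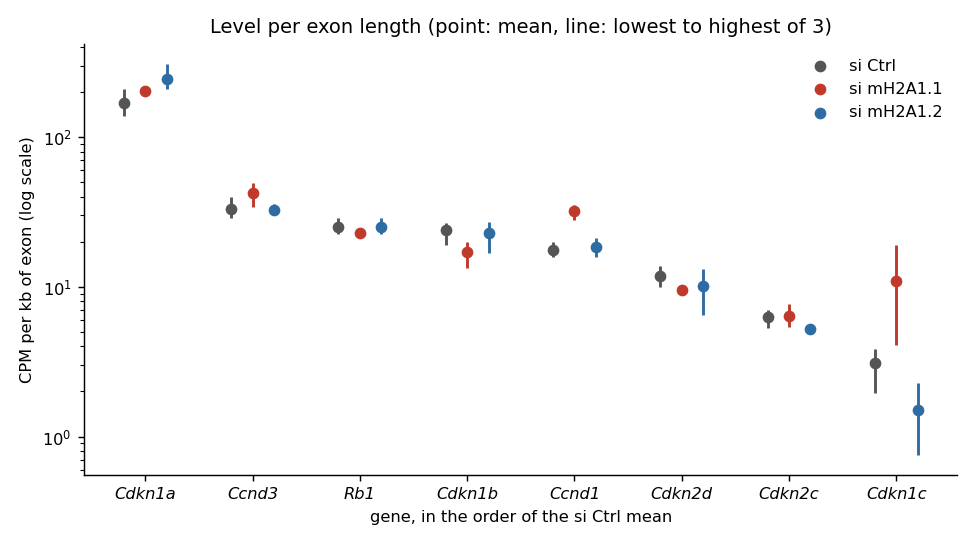
Level of the 8 members with counts, in CPM per kb of exon on a log axis, for the 3 groups (points are means of 3 samples, lines run from the lowest to the highest sample). Cdkn1a lies between 137.3 and 309.3 CPM per kb over all samples, and the largest spread is that of Cdkn1c with si mH2A1.1, from 4.09 to 19.13.

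Each contrast was tested across all 19545 genes and a gene was called at an adjusted p of at most 0.05. With si mH2A1.1 against si Ctrl, 1 of the 8 tested members was called, Ccnd1, which was higher. Over all genes tested, 11.1% were called in this contrast, 6.18% higher and 4.93% lower. With si mH2A1.2 against si Ctrl, 0 of 8 members were called by edgeR, where 2.35% of all genes were (1.37% higher and 0.982% lower). Of the 8, 1 member (Cdkn1a) had an unadjusted p under 0.05, and DESeq2 and limma-voom called 0 members there. These fits held no replicate block, although same-numbered samples of this contrast were taken as pairs, so the count of 0 is that of unpaired fits. The intervals and adjusted p given for single genes also come from fits without a block, unless a block is named. With the replicate number as a block, edgeR called 1 member (Cdkn1c, lower), and 1005 genes in all against 460 without it. Between the knockdowns, 2 of 8 members were called, Ccnd1 and Cdkn1c, both higher with si mH2A1.1. In that contrast 22.5% of all genes were called, 12.0% higher and 10.5% lower. The shares of members called are near those of all genes, and the number of members is too small to set them apart. The median log2 fold change over the 8 members was 0.14, -0.04 and 0.10 in the 3 contrasts, against -0.01, 0.00 and -0.01 over all genes. The contrasts with si Ctrl share their control samples.

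Groups without overlap are a looser description of the same samples. The 3 values of one group all lay on one side of the other's for 2 of 8 members with si mH2A1.1 against si Ctrl (Cdkn1c and Ccnd1), where 34.2% of all genes did so. This held for 1 of 8 members (Cdkn2c) with si mH2A1.2 against si Ctrl, where it held for 22.5% of all genes. Between the knockdowns it held for 3 of 8 (Cdkn1c, Cdkn2c and Ccnd1), against 39.7% of all genes. Neither share sets the members apart from the background.

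**Figure D2:**
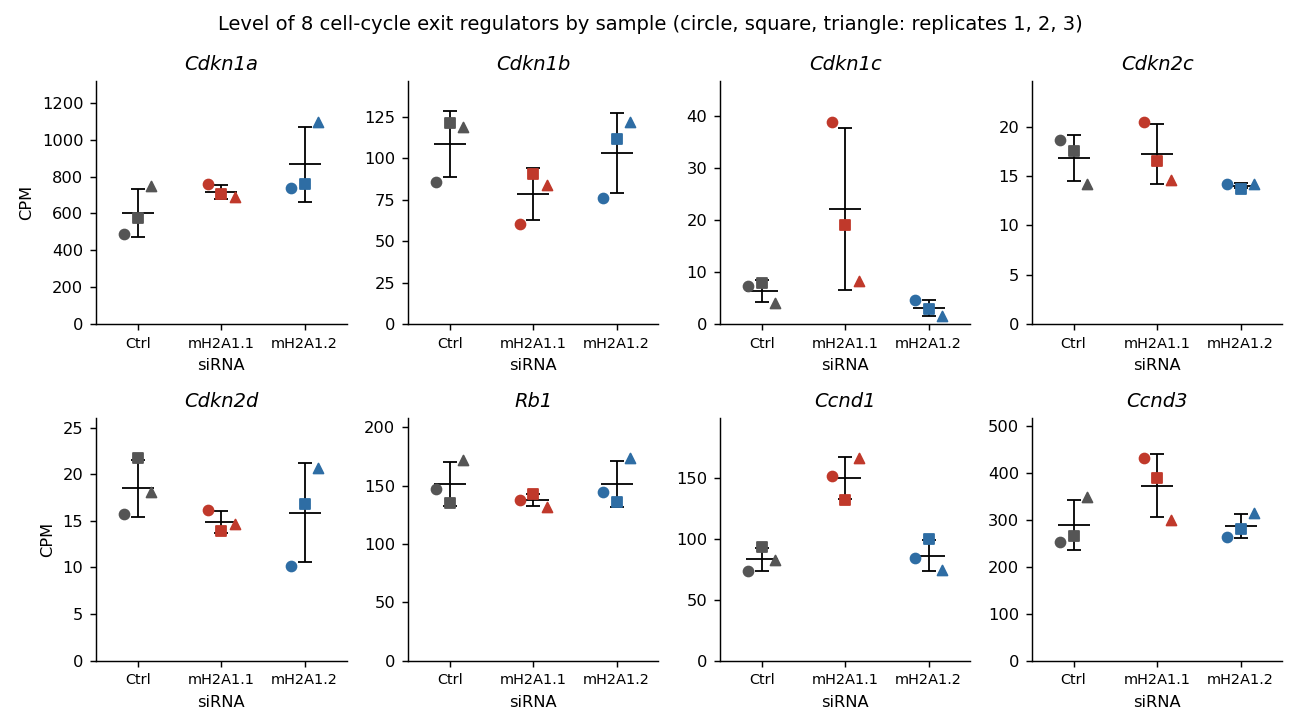
CPM of the 8 members with counts in each of the 9 samples, by siRNA group (symbols are replicates, the long bar is the mean and the whiskers 1 SD, n = 3). Ccnd1 sits between 132.2 and 166.5 CPM in si mH2A1.1 and between 74.15 and 99.88 in the other 6 samples.

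Cyclin D1, encoded by Ccnd1 (ENSMUSG00000070348, chromosome 7, 144929931 to 144939925, minus strand), is the D cyclin of growing myoblasts and usually declines on differentiation. Ccnd1 stood at 74.15, 93.1 and 82.76 CPM in si Ctrl, at 151.9, 132.2 and 166.5 in si mH2A1.1, and at 84.54, 99.88 and 74.74 in si mH2A1.2. The si mH2A1.1 samples were the 3 highest, and the si mH2A1.2 samples lay across the range of si Ctrl. Ccnd1 rose from 83.3 ± 9.49 CPM (SD, n = 3) in si Ctrl to 150.2 ± 17.2 with si mH2A1.1, a 1.80-fold difference (log2 fold change 0.85, 95% interval 0.55 to 1.15, edgeR adjusted p = 0.0061). It was also 1.74-fold higher with si mH2A1.1 than with si mH2A1.2 (log2 fold change 0.80, SE 0.14, edgeR adjusted p = 0.0033). With si mH2A1.2 against si Ctrl the difference was 0.05 on the log2 scale, with an interval from -0.25 to 0.35. Leaving out any 1 of the 9 samples kept Ccnd1 called with si mH2A1.1 against si Ctrl, at log2 fold changes of 0.77 to 0.93. LTO1, a gene on the opposite strand whose end overlaps that of Ccnd1, stood at 15.39, 13.19 and 15.73 CPM in si Ctrl and at 21.49, 18.13 and 19.1 in si mH2A1.1. The strand setting of the counting is not given in the sources used here, and how far reads of the overlap enter Ccnd1 was not tested. All 9 values of LTO1 were well under the lowest value of Ccnd1.

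Cyclin D3, encoded by Ccnd3 (ENSMUSG00000034165, chromosome 17, 47505051 to 47599691, plus strand), is the D cyclin that accumulates in myotubes and binds the retinoblastoma protein there. Ccnd3 stood at 252.2, 265.5 and 349.3 CPM in si Ctrl, at 430.8, 388.2 and 299.2 in si mH2A1.1, and at 263.9, 280.7 and 315.1 in si mH2A1.2. Among the si mH2A1.1 samples, 2 lay above all si Ctrl samples and the other between them, so the groups overlapped. Ccnd3 differed from si Ctrl by 0.37 on the log2 scale with si mH2A1.1 (0.00 to 0.73, edgeR adjusted p = 0.16), and against si mH2A1.2 it was 0.38 (0.02 to 0.74, edgeR adjusted p = 0.12). With si mH2A1.2 against si Ctrl it was -0.01 (-0.37 to 0.35). Bysl, on the opposite strand, overlaps the end of Ccnd3 and had 1214 to 2270 counts per sample, against 9422 to 17443 for Ccnd3.

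The mix of D cyclins was described as shares of their summed CPM per kb, with Ccnd2, the remaining D cyclin, added. Ccnd3 made up 62.3% ± 4.76 (SD, n = 3) in si Ctrl, 55.0% ± 6.22 in si mH2A1.1 and 60.2% ± 5.49 in si mH2A1.2. Ccnd1 made up 33.8% ± 4.24, 41.8% ± 6.81 and 33.8% in the same order. The lowest share of Ccnd1 with si mH2A1.1, 37.1%, lay under the highest of si Ctrl, 38.3%, so the shares overlapped. Ccnd2 held between 2.41% and 9.41% in every sample.

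**Figure D3:**
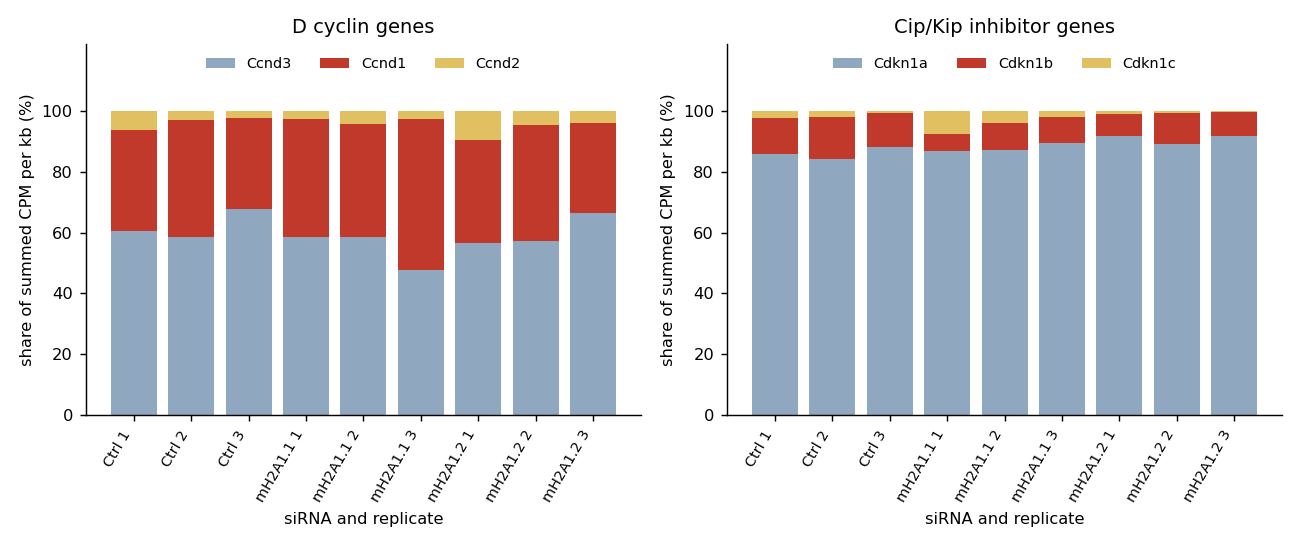
Share of each gene in the summed CPM per kb of exon of the D cyclin genes (left) and of the Cip/Kip genes (right), in percent, for each sample. Ccnd1 takes 29.4% to 49.6% of the D cyclin sum and Cdkn1a takes most of the Cip/Kip sum in every sample.

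p57, encoded by Cdkn1c (ENSMUSG00000037664, chromosome 7, 143458339 to 143461050, minus strand), is the product of an imprinted gene and acts with p21 in muscle cells that stop dividing. Cdkn1c stood at 7.25, 7.81 and 4.00 CPM in si Ctrl, at 39.0, 19.1 and 8.34 in si mH2A1.1, and at 4.68, 2.95 and 1.53 in si mH2A1.2. The si mH2A1.1 samples were the 3 highest and spread the most, and the si mH2A1.2 samples overlapped si Ctrl through 1 value. Between the knockdowns Cdkn1c differed 7.26-fold (log2 fold change 2.86, 1.63 to 4.09, edgeR adjusted p = 0.0063), the largest fold difference of any member, and it stayed called without any 1 sample, at 2.17 to 3.30. Against si Ctrl it was 3.49-fold with si mH2A1.1 (log2 fold change 1.80, 0.63 to 2.97), which missed the threshold at an edgeR adjusted p of 0.053. It was called there by DESeq2 (adjusted p = 0.037), by edgeR's newer form (0.048), without a filter on low counts (edgeR adjusted p = 0.011) and with the replicate block (0.0039). These were 4 of 8 alternatives. Limma-voom did not call it (adjusted p = 0.095). Nor did edgeR with DESeq2 size factors (0.054), with at least 10 counts in every sample (0.051) or with the 2 conditions alone (0.057). With 1 sample left out in turn, it was called in 3 of 9 fits. The value rests in part on 1 sample, since without si mH2A1.1 replicate 1 it was 1.12 (edgeR adjusted p = 0.22). Cdkn1c was lower in mean with si mH2A1.2 than in si Ctrl, by a log2 fold change of -1.06 (-2.26 to 0.15, edgeR adjusted p = 0.39). Replicate numbers paired the samples of this contrast, and the ratio of si mH2A1.2 to si Ctrl of the same number was 0.645, 0.378 and 0.383. With the replicate number as a block, Cdkn1c was called lower at -1.16 (edgeR adjusted p = 0.036), and 1005 genes were called in all against 460 without the block. Gm44732, annotated on the opposite strand of Cdkn1c, had no counts in any sample.

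p21, encoded by Cdkn1a (ENSMUSG00000023067, chromosome 17, 29090976 to 29100727, plus strand), is the inhibitor most closely tied to withdrawal from the cycle in muscle. Cdkn1a stood at 488, 573.8 and 747 CPM in si Ctrl, at 762.2, 703.1 and 688.4 in si mH2A1.1, and at 740.8, 757.7 and 1099 in si mH2A1.2. Both knockdowns overlapped the highest si Ctrl sample, replicate 3, and the highest value of all was replicate 3 of si mH2A1.2. Against si Ctrl, Cdkn1a differed by 0.25 on the log2 scale with si mH2A1.1 (-0.17 to 0.67, edgeR adjusted p = 0.40). With si mH2A1.2 it was 0.52 (0.10 to 0.94), with an unadjusted p of 0.019 and an edgeR adjusted p of 0.20. Within replicate numbers, the ratio of si mH2A1.2 to si Ctrl was 1.52, 1.32 and 1.47, above 1 in 3 of 3 pairs, and the blocked fit did not call it either. Between the knockdowns it was -0.27 (-0.69 to 0.15). Cdkn1a made up 86.1% ± 2.06 (SD, n = 3) of the summed Cip/Kip CPM per kb in si Ctrl, 87.9% ± 1.51 in si mH2A1.1 and 90.9% ± 1.48 in si mH2A1.2.

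p27, encoded by Cdkn1b (ENSMUSG00000003031, chromosome 6, 134920401 to 134925513, plus strand), holds quiescent cells out of the cycle and is largely set by protein turnover. Cdkn1b stood at 85.88, 121.5 and 118.9 CPM in si Ctrl, at 60.63, 90.52 and 83.77 in si mH2A1.1, and at 76.36, 111.5 and 122.3 in si mH2A1.2. Replicate 1 was the lowest of each group, and the groups overlapped. On the log2 scale Cdkn1b differed by -0.47 with si mH2A1.1 (-0.93 to -0.02, edgeR adjusted p = 0.16), -0.07 with si mH2A1.2 (-0.53 to 0.38) and -0.40 between the knockdowns (-0.86 to 0.06, edgeR adjusted p = 0.19). With the replicate number as a block, Cdkn1b was called lower with si mH2A1.1 against both other groups (edgeR adjusted p = 0.0057 against si Ctrl and 0.0071 against si mH2A1.2). In these contrasts, deviations from the group means correlated between same-numbered samples at r of 0.084 to 0.098 and 0.092 to 0.116. The mean r of differently numbered samples was -0.045 and -0.051. Centring on the group means ties this mean to the same-number r, so it is no separate measure. Every same-number r was positive, but under those of si mH2A1.2 against si Ctrl (0.196 to 0.331). Numbers were taken as pairs only where every same-number r of a contrast was over 0.1, which was not so here. An r under this cutoff does not show that samples of the same number are unrelated.

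Among the INK4 genes, Cdkn2a and Cdkn2b had 0 counts in all 9 samples. At these depths a count of 0 allows a level of up to 0.0711 to 0.0812 CPM per sample, taking 3 counts as the limit, which covers counting error only. Cdkn2a (ENSMUSG00000044303, chromosome 4, 89274471 to 89294653, minus strand) encodes p16Ink4a and, from another first exon, p19Arf, and Cdkn2b (ENSMUSG00000073802, chromosome 4, 89306299 to 89311039, minus strand) encodes p15Ink4b. The 9 samples together held 350063200 counts. Of the 21777 protein-coding genes in the table, 11.5% were at 0 in all samples, so a count of 0 is not rare. The genes annotated nearby were looked at after this was seen. Gm12606, 1068 bases from Cdkn2a, had 1 to 12 counts per sample, and Mtap, 93.4 kb away on the same side, had 2076 to 2717. On the other side, Gm12609 had 0 counts. The windows shown above are reference sequence, and whether the locus is present in the DNA of this line was not tested.

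The remaining INK4 genes were low but measured. Cdkn2c (ENSMUSG00000028551, chromosome 4, 109660876 to 109667189, minus strand) encodes p18Ink4c. Cdkn2c stood at 18.66, 17.53 and 14.18 CPM in si Ctrl, at 20.52, 16.47 and 14.58 in si mH2A1.1, and at 14.18, 13.72 and 14.18 in si mH2A1.2. The si mH2A1.2 samples lay close together and under every other sample, but si Ctrl replicate 3 was above the highest of them by less than the last digit shown. Its log2 fold change against si Ctrl was -0.26 for si mH2A1.2 (-0.59 to 0.07, edgeR adjusted p = 0.44) and 0.03 for si mH2A1.1 (-0.30 to 0.36), and between the knockdowns it was 0.29 (-0.04 to 0.62, edgeR adjusted p = 0.19).

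Cdkn2d (ENSMUSG00000096472, chromosome 9, 21288410 to 21291407, minus strand) encodes p19Ink4d. Cdkn2d stood at 15.69, 21.72 and 18.1 CPM in si Ctrl, at 16.13, 13.86 and 14.7 in si mH2A1.1, and at 10.21, 16.78 and 20.68 in si mH2A1.2. The groups overlapped, and si mH2A1.2 held the lowest value. Differences of Cdkn2d on the log2 scale were -0.31 for si mH2A1.1 (-0.81 to 0.18, edgeR adjusted p = 0.38), -0.22 for si mH2A1.2 (-0.72 to 0.28) and -0.09 between the knockdowns (-0.59 to 0.40).

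Rb1 (ENSMUSG00000022105, chromosome 14, 73183673 to 73325822, minus strand), the pocket protein gene, stood at 147.1, 135.2 and 172.3 CPM in si Ctrl, at 138.1, 142.7 and 132 in si mH2A1.1, and at 144.9, 136.1 and 173.6 in si mH2A1.2. The groups overlapped, and the largest of its 3 log2 fold changes was smaller in size than the largest of any other tested member. They were -0.14 on the log2 scale for si mH2A1.1 (-0.41 to 0.13), 0.00 for si mH2A1.2 (-0.27 to 0.27) and -0.14 between the knockdowns (-0.41 to 0.13), so a change of more than 0.41 on this scale lies outside each interval. Both genes that overlap Rb1 on the opposite strand were called higher with si mH2A1.1 against si Ctrl, Rcbtb2 at 0.59 (edgeR adjusted p = 0.020) and Lpar6 at 1.03 (0.033). Rcbtb2 had 813 to 1653 counts per sample and Lpar6 146 to 524, against 5074 to 6682 for Rb1, and how far their reads enter Rb1 was not tested.

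**Figure D4:**
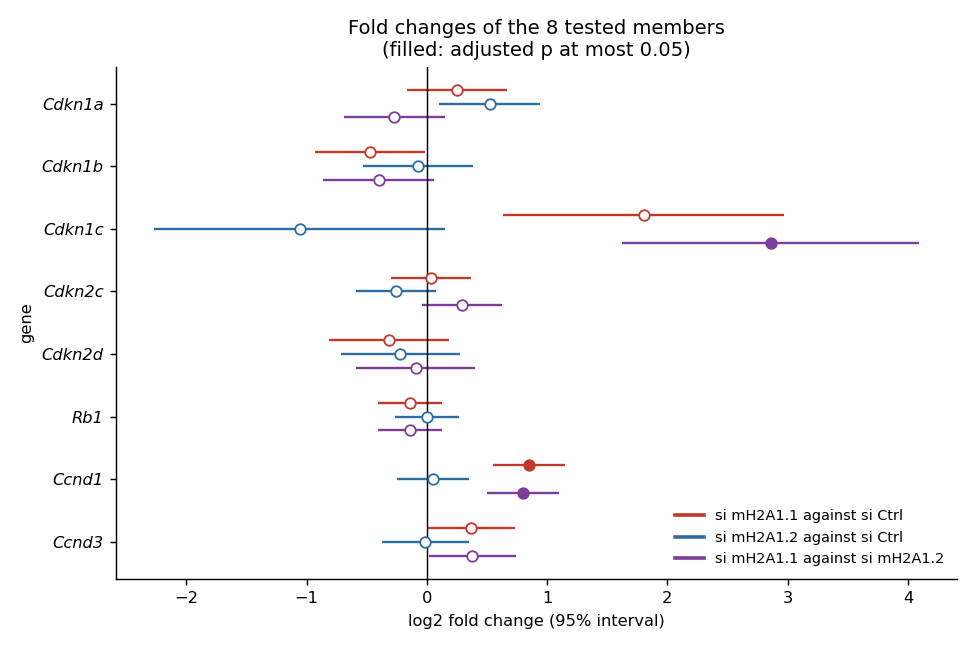
Log2 fold change of the 8 tested members in the 3 contrasts, with 95% intervals from edgeR (filled points have an adjusted p of at most 0.05). The filled points are Ccnd1 at 0.85 and 0.80 and Cdkn1c at 2.86.

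The other genes of this pathway were taken as 8 lists of 59 genes, all of which were tested. These lists were chosen with earlier results of these data known. With si mH2A1.1 against si Ctrl, 10 of the 59 were called higher and 1 lower, beside 6.18% and 4.93% of all genes. With si mH2A1.2 against si Ctrl, 0 were called by edgeR (3 had an unadjusted p under 0.05) and 0 by limma-voom, where edgeR called 2.35% of all genes. DESeq2, the blocked fit and edgeR without a filter on low counts each called 1 lower there, Cryab, at -0.61, -0.61 and -0.60. Without si mH2A1.1 replicate 1, Ccnb2 was called lower (-0.55, edgeR adjusted p = 0.049). Both genes are named after their values were seen. Between the knockdowns 31 were called higher with si mH2A1.1 and 1 lower, beside 12.0% and 10.5% of all genes. The median log2 fold change over the 59 was 0.55, -0.16 and 0.78, beside the medians of all genes given above. The first count moved widely with the samples, from 0 without si Ctrl replicate 2, si Ctrl replicate 3 or si mH2A1.1 replicate 1, and 1 without si mH2A1.1 replicate 3, to 31 without si mH2A1.1 replicate 2. The count between the knockdowns ranged from 11 without si mH2A1.2 replicate 2 to 35, and was 13 and 16 without replicates 1 and 3 of si mH2A1.1.

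The partners of the D cyclins (Ccnd2, Cdk4 and Cdk6) were called in none of the 3 contrasts by edgeR, DESeq2 or limma-voom, and 1 of them had an unadjusted p under 0.05 with si mH2A1.1 against si Ctrl. Cdk4, the main kinase of cyclin D1, was at 0.29 with si mH2A1.1 against si Ctrl (edgeR adjusted p = 0.15). Of the E2F and DP factors, E2f2 (1.11, edgeR adjusted p = 0.029) and E2f1 (0.41, 0.036) were called higher and E2f5 (-0.44, 0.048) lower with si mH2A1.1 against si Ctrl. Limma-voom, the 2 other filters and the fit of the 2 conditions alone did not call E2f5. With 1 sample left out, E2f5 was called only without si mH2A1.2 replicate 1. In the same contrast 5 of 14 E2F targets of S phase were called, all higher, among them the helicase subunit genes Mcm3 (1.27, edgeR adjusted p = 0.043) and Mcm4 (1.03, 0.040) and the thymidylate synthase gene Tyms (1.09, 0.025). Of 8 mitosis markers 3 were called higher, Plk1 (1.09, edgeR adjusted p = 0.042), Birc5 (0.96, 0.044) and Kif11 (0.94, 0.039). Over all genes, 6.18% were called higher in this contrast. Cyclins E, A and B and their kinases had 0 of 7 called by edgeR there, with a median of 0.75, while 5 had an unadjusted p under 0.05, DESeq2 called 5 and limma-voom 0. Of the p107 and p130 genes Rbl1 and Rbl2, the MuvB list of 7 and the list of 8 G1 regulators, edgeR and limma-voom called 0, DESeq2 called 1, 2 and 1, and 1, 2 and 2 had an unadjusted p under 0.05.

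Between the knockdowns, 8 of 8 mitosis markers and 11 of 14 S-phase targets were called higher with si mH2A1.1, beside 12.0% of all genes. Birc5 at 1.50 (edgeR adjusted p = 0.0045), Plk1 at 1.48 (0.0073) and Bub1 at 1.35 (0.0056) had the largest differences of the former. Cdc6, which loads the replicative helicase, was at 2.03 (0.017), Mcm5 at 1.84 (0.021) and Mcm3 at 1.52 (0.013). Of the E, A and B cyclins and kinases 5 of 7 were called higher, led by Ccna2 at 1.36 (edgeR adjusted p = 0.0069), Cdk1 at 1.31 (0.0086) and Ccne1 at 1.24 (0.017). Of the E2F and DP factors, E2f2, E2f7 and E2f6 were called higher and E2f5 lower. Foxm1 at 1.45 (edgeR adjusted p = 0.0052) and Mybl2 at 1.35 (0.048), transcription factors of the late cycle, were the called genes of the MuvB list, Rbl1 at 0.78 (0.024) that of the pocket protein relatives, and Cks1b at 0.78 (0.036) that of the G1 regulators.

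**Figure D5:**
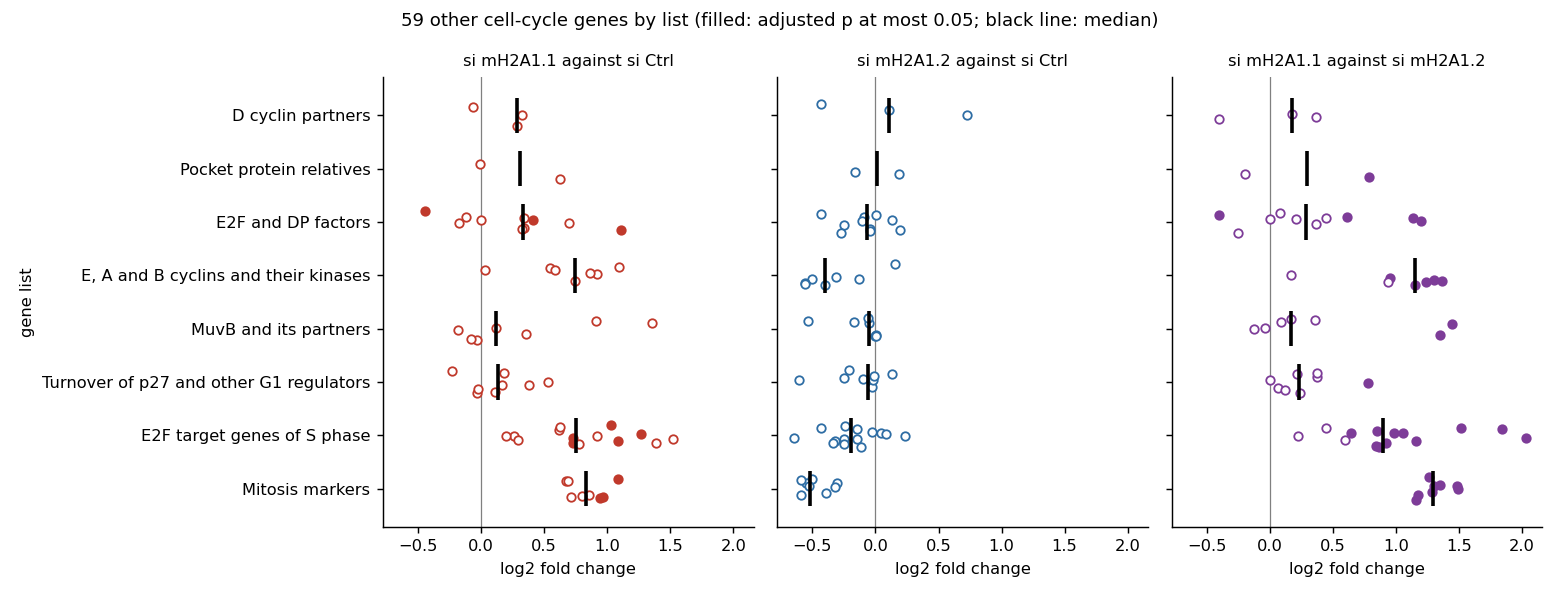
Log2 fold change of the 59 other cell-cycle genes by list in the 3 contrasts (each point is a gene, filled where its adjusted p is at most 0.05, and the black line is the median of the list). All 8 mitosis markers lie above 0 in both contrasts of si mH2A1.1 and below 0 with si mH2A1.2 against si Ctrl, where none is filled.

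Markers of differentiation and of other cells moved with some of these values. Of the 10 myotube markers, Myh1 (1.26, edgeR adjusted p = 0.038) was called higher and Myog (-0.66, 0.020) lower with si mH2A1.1 against si Ctrl. With si mH2A1.2, Myh1 (-1.76, edgeR adjusted p = 0.030) and Tnnt3 (-0.96, 0.028) were called lower. Between the knockdowns 4 myotube markers were called higher and 1 lower with si mH2A1.1. Of 7 tested reserve cell markers, 0 were called with si mH2A1.1 by edgeR, DESeq2 and limma-voom (2 had an unadjusted p under 0.05), and edgeR called 1 lower with si mH2A1.2 (Myf5, -0.84, edgeR adjusted p = 0.042), and between the knockdowns 2 were called higher and 3 lower. The 4 macrophage markers summed to 2.86 to 4.05 CPM in si Ctrl, 6.10 to 11.45 in si mH2A1.1 and 3.44 to 3.63 in si mH2A1.2. Nearly all of this was Cd68, a lysosomal gene, while Adgre1 had no counts in si Ctrl or si mH2A1.1. Cd68 was called higher with si mH2A1.1 against si Ctrl (1.62, edgeR adjusted p = 0.0057) and against si mH2A1.2 (1.6, 0.0023). The 5 osteoblast markers summed to 39.3 to 66.4, 24.7 to 29.4 and 43.1 to 74.7 CPM, and the 5 adipocyte markers to 8.83 to 15.5, 13.0 to 14.2 and 5.59 to 10.6. Nearly all of the first sum was Runx2 (means of 48.73, 26.49 and 59.56 CPM) and most of the second Pparg (11.34, 13.2 and 8.225). Runx2 was called lower with si mH2A1.1 against si Ctrl (-0.88, edgeR adjusted p = 0.040) and against si mH2A1.2 (-1.17, 0.0072). The 3 endothelial markers stayed at 0.830 to 1.41 CPM in all samples. What part these differences have in the values of Ccnd1 and Cdkn1c was not tested.

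The genes whose pattern over the 9 samples was most like that of a member were found among 11248 genes of at least 5 CPM, by Pearson r on log2 CPM. They were Faxc (r = 0.992), Ing3 and Myo1e for Ccnd1, and Med30 (0.983), Hmg20b and Cd63 for Cdkn1c. For Cdkn1a they were Epc2 (0.933), Ddx1 and Kcnj2, and for Cdkn1b Klf9 (0.984), Cir1 and Sbf2. Arl6ip1 (0.968), Tinf2 and Dpm2 were nearest to Cdkn2c, and Mfn1 (0.987), Gm4987 and Ing1 to Cdkn2d. Enah (0.955), Terf2 and Wdcp were nearest to Rb1, and Romo1 (0.950), Sae1 and Vps72 to Ccnd3. These are the highest of many correlations over 9 samples that share their groups, and serve as a description only.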

How the data were processed

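Salmon was run by the authors on the GRCm38 assembly with 50 bp single reads, and the deposited table holds their estimated counts per gene as whole numbers, without normalization. A second deposited table, of normalized counts, was not used. GENCODE M21, which held 52762 of the 52780 genes, gave symbols, coordinates and exon lengths, and RefSeq on GRCm38.p6 the promoter sequences. The annotation release is not given in the sources used here.

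All 9 samples were fitted in 1 model in R 4.3.3 with edgeR 4.0.16 (quasi-likelihood test in its legacy form, TMM normalization, filterByExpr) and 3 contrasts were taken with Benjamini-Hochberg adjustment over 19545 genes. CPM were computed on TMM-scaled library sizes, intervals are at 95%, and levels between genes are CPM per kb of merged exons. Alternatives were DESeq2 1.42.0 and its size factors, limma-voom (limma 3.58.1), edgeR's newer form, 2 other filters, the replicate number as a block, fewer samples and a stricter threshold. The test was checked on simulated data. Members and lists were chosen with earlier results of these data known. Every member is named, and of each other list at most 3 called genes by the largest fold change. E2f5 between the knockdowns, and Cryab and Ccnb2 with si mH2A1.2 against si Ctrl, are named beyond this rule. Deviations from the group means correlated between si mH2A1.2 and si Ctrl samples of the same number at r of 0.196 to 0.331. These numbers were taken as pairs because every such r was over 0.1, which did not hold in the other contrasts. The main fit held no replicate block in any contrast. The ChIP-seq and imaging of the study were not analysed here.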

Additional observations from a re-analysis of the deposited data

How the results depend on the processing

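For si mH2A1.1 against si Ctrl, the 1 called member became 2 with DESeq2, with edgeR's newer form and without a filter on low counts (each adding Cdkn1c), and 3 with the replicate block, which added Cdkn1b (adjusted p = 0.0057) and Cdkn1c (0.0039). Libraries of the same replicate number have names in sequence, but no source states a pairing, and the numbers were not taken as pairs in this contrast (r of 0.084 to 0.098) or between the knockdowns (0.092 to 0.116), where the block gave 3 called members for 2 by adding Cdkn1b (adjusted p = 0.0071). For si mH2A1.2 against si Ctrl, the block changed 0 to 1 (Cdkn1c). An adjusted p below 0.01 together with a log2 difference of 0.8 or more in size left 1 of 2 members between the knockdowns. Leaving out 1 sample gave 1 to 2, 0 and 2 called members in the 3 contrasts. The cause of these shifts was not tested.

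Over all genes, 2171, 460 and 4397 were called. DESeq2 called 3354 and 1113 in the contrasts with si Ctrl, the block 4065 and 1005, the stricter threshold 352, 35 and 1247 in the 3 contrasts, and leaving out 1 sample 605 to 2928, 74 to 544 and 2251 to 4616. Of the other 59 pathway genes, 4 to 28 were called higher with si mH2A1.1 against si Ctrl under the other alternatives, chosen after seeing the data, and 29 to 36 between the knockdowns.

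Values near 0 changed sign when 1 sample was left out. These were Cdkn2c with si mH2A1.1 (-0.11 to 0.14), Cdkn1b (-0.22 to 0.10), Cdkn2d (-0.45 to 0.013), Rb1 (-0.11 to 0.094), Ccnd1 (-0.068 to 0.15) and Ccnd3 (-0.10 to 0.14) with si mH2A1.2, and Cdkn2d between the knockdowns (-0.33 to 0.14). Rb1 with si mH2A1.2 was also at -0.0030 with DESeq2 and at -0.00087 with its size factors. Per kb of coding sequence, Ccnd3 made up 73.7%, 68.0% and 71.0% of the D cyclin sum. Depth limits Cdkn1c most among the tested members, with 57 to 1579 counts per sample, and with 3 samples a group an exact permutation test cannot go below 0.10.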
